A study of Mus musculus with 16 samples.

Results

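Primary hepatocytes and mouse embryonic fibroblasts (MEFs) that had received a control virus were compared gene by gene, to describe which transcripts set these cell types apart before any loss of Ssu72. The comparison took the Ad-Luc group of the hepatocyte table and the Ad-Luc group of the MEF table, that is 6 of the 16 samples of the series, with 3 samples per group, and matched the tables on gene symbol, which gave 23996 genes. Ad-Luc is an adenovirus that carries luciferase, and cells were exposed to it in low serum. All cells came from C57BL/6 mice in which Ssu72, a phosphatase of the RNA polymerase II tail, is flanked by loxP sites, so the control cells kept Ssu72 but carried the floxed alleles and had been infected, although the labels call them wild type. The MEFs came from embryos of embryonic day 13.5 and were the adherent cells of whole sheared embryos. The hepatocytes came from mice that the labels describe as 6 weeks old (the study's methods give a slightly younger age), were released by collagenase perfusion and were kept in culture. The Ad-Cre hepatocytes and MEFs of the series (6 samples), in which a Cre virus removed Ssu72, and 2 samples of floxed ES cells with Ad-Luc did not enter the contrast and are used only beside it.

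RNA-Seq values were FPKM, which are fragments scaled to transcript length and to the number of mapped fragments, so that levels can be compared between genes. The deposited tables hold 1 FPKM per gene and group, made by the authors over the samples of the group. No spread between samples, no test and no p-value could be had from them, read depth is unknown, and each value below is the authors' group value. The hepatocyte and MEF tables were normalised separately. Cell type, culture, age of the animals and table differed together and cannot be told apart, and in bulk samples neither can fewer cells of a type and less RNA per cell. Differences are given as log2((hepatocyte FPKM + 1)/(MEF FPKM + 1)), where a positive value means higher in hepatocytes, and a gene was counted as higher in a cell type when this reached 4-fold, a log2 difference of 2.

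Hepatocytes are the epithelial cells of the liver. They make most plasma proteins, and hold the enzymes for bile acids, urea, glucose output and drug breakdown, under the control of a network of liver-enriched transcription factors. Fibroblasts are mesenchymal cells that build the extracellular matrix of collagen, elastic fibres and proteoglycans, pull on it with actin bundles, and keep a positional Hox code from the embryo.

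Both labels held against their markers. Alb, which encodes serum albumin, stood at 5207 FPKM in control hepatocytes and 1.26 FPKM in control MEFs, a log2 difference of 11.17. Col1a1, a chain of fibrillar type I collagen, stood at 9.92 FPKM in hepatocytes and 7076 FPKM in MEFs, a log2 difference of -9.34. Each marker was abundant in its own cell type and low in the other. Among other markers, of which Ttr, Cps1 and Pdgfra were chosen after their values were seen, Apoa1 (247 against 0.133 FPKM) and Hnf4a (54.2 against 0.0205 FPKM) were on the hepatocyte side, Ttr was at 96.9 FPKM and listed at 0 in MEFs, and the urea cycle enzyme Cps1 was at only 12.3 FPKM in hepatocytes and 0.0112 FPKM in MEFs. The fibroblast markers Col1a2, Col3a1, Pdgfra, Pdgfrb, Twist1 and Thy1 lay between 42.7 FPKM (Twist1) and 3222 FPKM (Col1a2) in MEFs and between 0.111 FPKM (Twist1) and 1.73 FPKM (Col1a2) in hepatocytes.

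Of the 23996 genes, 844 (3.52%) were at least 4-fold higher in hepatocytes and 1149 (4.79%) at least 4-fold higher in MEFs. At 2-fold the shares were 9.03% and 10.6%, and at 8-fold 1.91% and 2.55%. Over the 13172 genes that reached 1 FPKM in either cell type the shares were 6.41% and 8.72% at 4-fold, 16.5% and 19.3% at 2-fold and 3.48% and 4.65% at 8-fold. The shares of all matched genes are the background for the gene groups below, and the median log2 difference of all genes was 0. All matched genes include 10824 below 1 FPKM in both cell types, which cannot reach 2-fold on this scale. For lists of expressed genes, the higher shares over the 13172 genes are the nearer measure. With log2 differences centred on ribosomal protein genes, which shifts every difference by 0.61 toward hepatocytes, the same counts were 1441 and 776. The values next to the limit were 2.0042 and 1.9983 on the hepatocyte side and -2.0024 and -1.9994 on the MEF side, so the limit divides a continuous range. Of the 844 genes, 506 were below 1 FPKM in MEFs, and of the 1149 genes, 719 were below 1 FPKM in hepatocytes. The genes higher in hepatocytes had a median of 24.0 FPKM there and 0.471 FPKM in MEFs, and those higher in MEFs a median of 21.2 FPKM there and 0.380 FPKM in hepatocytes. Most expressed genes were shared: 10485 genes reached 1 FPKM in both cell types, and 75.5% of those differed by less than 2-fold.

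**Figure D1:**
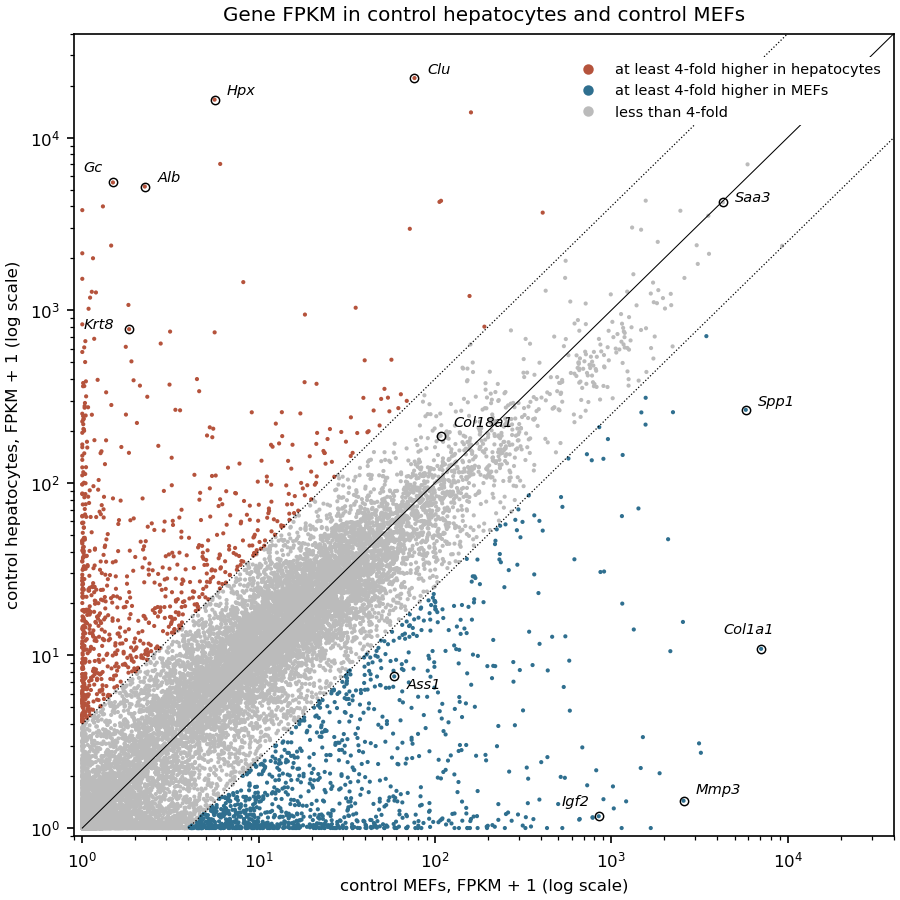
FPKM + 1 of each of 23996 matched genes in control MEFs (horizontal, log scale) and control hepatocytes (vertical, log scale), with equality as a solid line and 4-fold as dotted lines. The plasma protein genes Clu, Hpx, Gc and Alb stand at the top left, Col1a1 (7076 FPKM in MEFs) and Mmp3 at the lower right, and Saa3 lies on the line of equality.

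Genes of secreted proteins held the 4 highest values in hepatocytes. The 10 highest genes, which also include the small nucleolar RNAs Snord96a (7002 FPKM) and Snord33 (4314 FPKM), took 16.7% of the summed FPKM in hepatocytes. The 10 highest of MEFs took 8.88% there, and include the short RNAs Mir130c (9311 FPKM), Snord96a (5928 FPKM) and Mir703 (3551 FPKM). Clu, encoding the extracellular chaperone clusterin, was the highest gene of the hepatocytes, at 22144 FPKM against 75.6 FPKM in MEFs. Hpx, the plasma protein that binds free haem, followed at 16607 against 4.63 FPKM, and Hp, haptoglobin, which binds free haemoglobin, at 14009 against 159 FPKM. Trf, the iron carrier transferrin, stood at 7041 against 5.05 FPKM. Clu, Snord96a, Snord33, Mir130c and Mir703 were chosen after their values were seen. The largest difference of a protein-coding gene was that of Gc, the vitamin D binding protein, at 5500.2 against 0.493 FPKM and a log2 difference of 11.85.

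Plasma carriers were the group with the highest median log2 difference, 6.61. Of 23 matched carriers, 21 were at least 4-fold higher in hepatocytes and none in MEFs. Ambp, the precursor of the small carrier alpha-1-microglobulin, stood at 3996 against 0.309 FPKM. Mup20 (1278 against 0.132 FPKM) and Mup3 (1267 against 0.195 FPKM) encode major urinary proteins, pheromone carriers of the mouse, from a cluster of near-identical genes whose reads the counting may have split between copies. Serpina7, the thyroxine-binding globulin, was at 1182 against 0.107 FPKM. The whole list took 4.08% of the summed FPKM in hepatocytes, to which the thyroxine carrier Ttr contributed only 96.9 FPKM.

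Clotting factors had nearly the same median, 6.37, and 19 of 21 were at least 4-fold higher in hepatocytes. The 3 fibrinogen chains, which assemble into a single clottable protein, were unequal: Fgb stood at 2000.3 FPKM, Fgg at 386 FPKM and Fga at 362 FPKM in hepatocytes. All 3 were at or below 0.150 FPKM in MEFs. Kng1, the kininogen, stood at 369.9 against 2.12 FPKM, F2, prothrombin, at 278 against 0.0312 FPKM, and the adhesive plasma protein Vtn at 245 against 0.0453 FPKM. The members short of the limit, F13b and Proz, were picked after their values were seen, at 2.46 and 2.75 FPKM in hepatocytes.

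The motif GTTAAT is known from promoters of albumin and fibrinogen genes. Shown here, chosen because they hold it, are the 150 bases before the annotated start of the 3 genes with the highest hepatocyte FPKM among those at least 4-fold higher in hepatocytes with that motif in this window, read 5′ to 3′ on the gene's own strand, from the RefSeq table of build GRCm38.p6 (mm10). Capitals mark GTTAAT or its reverse complement. Gc is on the minus strand at chr5:89457899-89458048, Alb on the plus strand at chr5:90460720-90460869 and Fgb on the minus strand at chr3:83049864-83050013, and the motif begins at positions -52, -32 and -29 from the start.
Gc: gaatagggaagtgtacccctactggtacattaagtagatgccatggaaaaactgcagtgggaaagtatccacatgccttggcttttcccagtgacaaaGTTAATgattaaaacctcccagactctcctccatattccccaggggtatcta
Alb: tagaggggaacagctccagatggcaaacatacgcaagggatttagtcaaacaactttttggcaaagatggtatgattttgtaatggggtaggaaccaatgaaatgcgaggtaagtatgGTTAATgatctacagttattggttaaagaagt
Fgb: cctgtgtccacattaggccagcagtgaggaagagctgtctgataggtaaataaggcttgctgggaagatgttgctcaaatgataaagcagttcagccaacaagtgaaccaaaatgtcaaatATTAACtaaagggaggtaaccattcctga

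Across the table, a window of 300 bases (250 before to 50 after the start) was found for 16687 of the matched genes, for 577 of the 844 genes higher in hepatocytes and for 776 of the 1149 genes higher in MEFs. GTTAAT was present, on either strand, in 12.3% of the windows of genes higher in hepatocytes, in 3.09% of those higher in MEFs, in 6.21% of all windows and in 4.27% of the windows of genes with at least 1 FPKM in either cell type. Among plasma carriers 9 of 18 windows held it, among clotting factors 6 of 18 and among collagen chains 0 of 19. The GC box, GGGCGG, showed the opposite order, with 46.1% of windows on the hepatocyte side, 60.2% on the MEF side, 47.6% of all windows and 64.7% of the windows of expressed genes. The median window held 8 CpG pairs for genes higher in hepatocytes, 17 for genes higher in MEFs, 14 for all genes and 21 for expressed genes. The TATA box, TATAAA, was about as frequent on the hepatocyte side (14.6%) as on the MEF side (14.0%), with 12.9% over all windows and 7.63% over expressed genes. Other motifs were AAAGTCC (HNF4), in 6.76%, 3.48% and 4.24% of windows, TTGCNNA (C/EBP), in 36.7%, 29.0% and 35.0%, CATTCC (TEAD), in 14.9%, 14.0% and 13.5%, and CCAAT, in 38.3%, 34.7% and 38.8%, given for the hepatocyte side, the MEF side and all windows. Over expressed genes the shares were 4.10% (HNF4), 31.5% (C/EBP), 12.1% (TEAD) and 38.6% (CCAAT). The hepatocyte side was near the share of all windows for TATAAA, the GC box, C/EBP, TEAD and CCAAT. Against expressed genes it was higher for TATAAA and C/EBP and lower for the GC box. Both strands were searched, matches of different motifs may overlap, and a match describes letters and not binding.

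Apolipoproteins and their assembly factors had a median log2 difference of 4.42, with 17 of 20 at least 4-fold higher in hepatocytes and 1 in MEFs. Apoe, a ligand of lipoprotein receptors, stood at 4244 against 105 FPKM, and Apob, the scaffold of very low density lipoprotein, at 316 against 0.0514 FPKM. Apoc1 was at 282 against 0.461 FPKM, Apoa1, the main protein of high density lipoprotein, at 247 against 0.133 FPKM, and Apoa4 at 122 FPKM and listed at 0 in MEFs. Against this order, Pltp, which moves phospholipid between lipoproteins, was at 2.51 FPKM in hepatocytes and 79.2 FPKM in MEFs.

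Complement and acute phase genes were less one-sided. Of 19 complement genes, 12 were at least 4-fold higher in hepatocytes, with a median log2 difference of 2.55. The central component C3 stood at 2963 against 71.0 FPKM, its partner Cfb at 1033 against 34.5 FPKM and C4b at 365 against 1.12 FPKM. Some members were closer. Serping1, the C1 inhibitor, was at 464 FPKM in hepatocytes and 142 FPKM in MEFs, C1s1 at 321 and 86.2 FPKM, and the lectin pathway protease Masp1 was higher in MEFs at 23.9 against 8.42 FPKM.

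Of 18 acute phase genes, 12 were at least 4-fold higher in hepatocytes, with a median of 4.91. The list took 8.15% of the summed FPKM of hepatocytes and 0.923% of that of MEFs. Cp, the copper-carrying ferroxidase ceruloplasmin, stood at 4306 against 107 FPKM, and Lcn2, a protein that withholds bacterial iron carriers, at 3677 against 407 FPKM. Saa3, a serum amyloid A form that is made outside the liver as well, was nearly equal, at 4215 FPKM in hepatocytes and 4293 FPKM in MEFs, and ranked among the highest genes of both. The liver forms Saa1 and Saa2, close copies of each other, were at 151 and 37.3 FPKM in hepatocytes and at or below 0.321 FPKM in MEFs, and were picked after their values were seen. Il1rn, the interleukin-1 receptor antagonist, was the member at least 2-fold higher in MEFs, at 14.7 against 3.67 FPKM.

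Hepcidin had the largest difference among iron genes. Hamp, which encodes this hormone that blocks iron export, was at 2137 FPKM in hepatocytes and listed at 0 in MEFs. Its target, the exporter Slc40a1, stood at 88.8 against 1.90 FPKM, and the liver transferrin receptor Tfr2 at 77.9 against 0.650 FPKM (both named after their values were seen). The ferritin chains were shared, with Ftl1 at 2379 and 3049.9 FPKM and Fth1 at 1616 and 1334 FPKM, hepatocytes first. The metallothioneins, which bind zinc and copper, were higher in MEFs, Mt2 at 1566 against 310.0 FPKM and Mt1 at 863 against 303 FPKM. In the list as a whole, 6 of 14 genes were at least 4-fold higher in hepatocytes and 1 in MEFs.

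**Figure D2:**
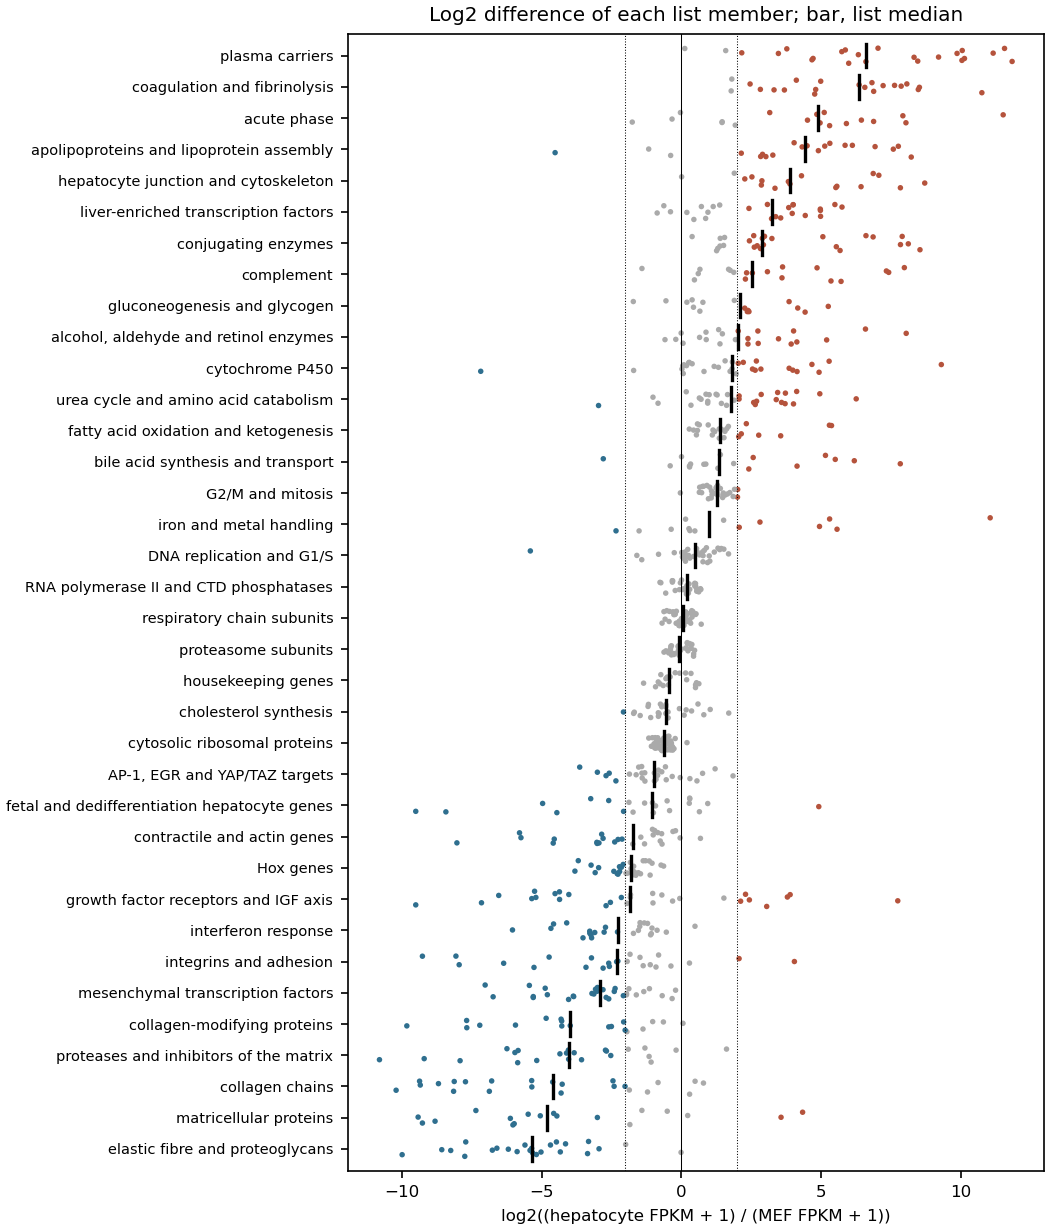
Log2 difference (horizontal, positive for higher in hepatocytes) of each matched member of the gene lists (vertical), with the list median as a bar and 4-fold as dotted lines. Lists of secreted liver proteins have the highest medians, up to 6.61, matrix lists the lowest, down to -5.34, and lists of machinery that every cell uses lie near 0.

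The metabolic enzymes of the liver were also on the hepatocyte side, and their lists had median hepatocyte levels from 2.56 to 58.6 FPKM, where lists of secreted proteins had 47.2 to 148 FPKM. Of 31 cytochrome P450 genes, the family that oxidises drugs and steroids, 13 were at least 4-fold higher in hepatocytes and 1 in MEFs, and 9 were below 1 FPKM in the hepatocytes themselves. The P450 genes had the lowest of these list medians. Cyp2a5, which oxidises coumarin and nicotine, led at 661 against 0.0408 FPKM, and its near copy Cyp2a4, which may share its reads and was picked after its value was seen, was at 500.2 FPKM. Cyp4v3 (65.7 FPKM), the sterol hydroxylase Cyp27a1 (62.0 FPKM) and Cyp2c70 (38.8 FPKM) followed. Picked after their values were seen, Cyp2e1, the ethanol-inducible form, stood at 1.14 FPKM in hepatocytes and 0.876 FPKM in MEFs, and Cyp3a11 at 2.41 and 0.0123 FPKM. Cyp1b1, a form found outside the liver, was at 158 FPKM in MEFs and 0.0974 FPKM in hepatocytes, a log2 difference of -7.18, and the sterol enzyme Cyp51 at 52.5 and 15.4 FPKM.

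Conjugating enzymes, which attach glutathione, glucuronic acid or sulphate to drugs, were all higher in hepatocytes. 18 of 25 were at least 4-fold higher in hepatocytes, none in MEFs, and the median log2 difference was 2.91. Mgst1 stood at 1208 against 156 FPKM, Gstm1 at 943 against 17.3 FPKM and Gstp1 at 309.7 against 38.3 FPKM. These glutathione transferases were measurable in both cell types. The glucuronyl transferases Ugt2b36 (378 FPKM), Ugt2b34 (289 FPKM) and Ugt2b35 (243 FPKM) were at or below 0.0353 FPKM in MEFs, and lie in a cluster of similar genes.

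Alcohol, aldehyde and retinol enzymes had a median of 2.04, with 12 of 23 at least 4-fold higher in hepatocytes. Aldh1a1, which turns retinal into retinoic acid, stood at 505 against 0.900 FPKM and Adh1, the ethanol dehydrogenase, at 160.3 against 0.665 FPKM. The mitochondrial Aldh2 was present in both, at 214 and 81.1 FPKM.

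The bile acid list held both abundant and scarce members in hepatocytes. Of 18 genes, 7 were at least 4-fold higher in hepatocytes and 1 in MEFs. The efflux pumps Abcc3 and Abcc2 stood at 262 and 232 FPKM in hepatocytes and at 2.59 and 0.0128 FPKM in MEFs, and the phospholipid pump Abcb4 at 50.7 against 0.130 FPKM. Nr0b2, a repressor of bile acid synthesis, was at 36.6 against 0.0473 FPKM. The members named after their values were seen were low in hepatocytes: Cyp7a1, the rate-limiting enzyme of bile acid synthesis, at 0.00811 FPKM, the uptake carrier Slc10a1 at 1.94 FPKM and the bile salt export pump Abcb11 at 1.53 FPKM. Cyp7b1, an oxysterol hydroxylase, was at 44.6 FPKM in MEFs against 5.604 FPKM.

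Urea cycle and amino acid genes had a median log2 difference of 1.78. 15 of 32 were at least 4-fold higher in hepatocytes and 1 in MEFs. Tdo2, which opens tryptophan breakdown, was the highest in hepatocytes at 82.1 against 0.0802 FPKM, and Mat1a, the liver enzyme that makes S-adenosylmethionine, stood at 30.3 against 0.00424 FPKM. The urea cycle was uneven. Asl was at 65.8 against 14.9 FPKM, while Ass1, the step before it, was higher in MEFs, at 57.8 against 6.56 FPKM and a log2 difference of -2.96. Otc, named after its value was seen, was at 0.638 FPKM in hepatocytes, and Arg1, the liver arginase, at 1.48 FPKM. Cth, which makes cysteine, was at 24.5 FPKM in MEFs and 11.7 FPKM in hepatocytes.

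The key enzymes of glucose release were low. Pck1, the cytosolic enzyme that opens gluconeogenesis, stood at 0.161 FPKM in hepatocytes and 0.00723 FPKM in MEFs, and its mitochondrial form Pck2 at 18.7 and 63.5 FPKM. G6pc, the enzyme that frees glucose (named after its value was seen), was at 0.312 FPKM in hepatocytes. Others of the list were clearly on the hepatocyte side, among them the glycogen phosphorylase Pygl at 49.0 against 8.51 FPKM, Pklr at 38.2 against 0.0175 FPKM, Khk, which phosphorylates fructose, at 27.5 against 4.52 FPKM, and Fbp1 at 21.0 against 0.0141 FPKM. Of 16 matched genes, 8 were at least 4-fold higher in hepatocytes and none in MEFs, and 5 were at least 4-fold higher in hepatocytes in the Ad-Cre groups.

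Fatty acid oxidation genes differed in 1 direction but mildly. All 24 had the higher FPKM in hepatocytes, 17 by at least 2-fold and 7 by at least 4-fold, against backgrounds of 9.03% and 3.52%. Acadm, the dehydrogenase of medium chains, was at 60.5 and 11.2 FPKM and Cpt1a, the gate of fatty acid entry into mitochondria, at 58.6 and 37.0 FPKM, hepatocytes first. With log2 differences taken in the Ad-Cre groups, 11 of them reached 2-fold. Fabp1, the liver fatty acid binding protein, stood at only 1.96 FPKM in hepatocytes.

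The transcription factors that drive these programmes showed the same split. Of 25 liver-enriched factors, 15 were at least 4-fold higher in hepatocytes and none in MEFs, with a median of 3.24. Hnf4a, the nuclear receptor that holds the hepatocyte state, stood at 54.2 against 0.0205 FPKM. The forkhead factors that open liver chromatin were present together, Foxa2 at 45.9 FPKM, Foxa1 at 22.8 FPKM and Foxa3 at 15.1 FPKM, each at or below 0.0927 FPKM in MEFs. Cebpa was at 61.2 against 0.958 FPKM, while Cebpb, a relative active in many tissues, was higher in MEFs, at 265 against 145 FPKM. The receptors for bile acids, Nr1h4 (31.1 FPKM), and for drugs, Nr1i2 (8.53 FPKM), were on the hepatocyte side, but the other drug receptor Nr1i3 was at 0.754 FPKM and Ppara, the receptor that drives fatty acid oxidation, at 1.41 FPKM. Atf5, Rxra and Esrra differed by less than 2-fold, at 91.3, 14.7 and 26.4 FPKM in hepatocytes and 141, 10.5 and 13.1 FPKM in MEFs.

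The mesenchymal factors mirrored this. All 30 had the higher FPKM in MEFs, 21 by at least 4-fold (background 4.79%), and 22 were below 1 FPKM in hepatocytes. Twist2 stood at 142 against 0.103 FPKM and Prrx1, a limb mesenchyme factor, at 128 against 0.215 FPKM. Creb3l1, which drives collagen secretion, was at 73.3 against 1.54 FPKM. The repressors of epithelial genes Snai1 and Snai2 stood at 37.4 and 28.5 FPKM in MEFs and 1.35 and 1.05 FPKM in hepatocytes, whereas Zeb1 reached 8.97 FPKM in hepatocytes against 20.9 FPKM. Meox1, Tcf21 and Tbx20 were below 1 FPKM in both.

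**Figure D3:**
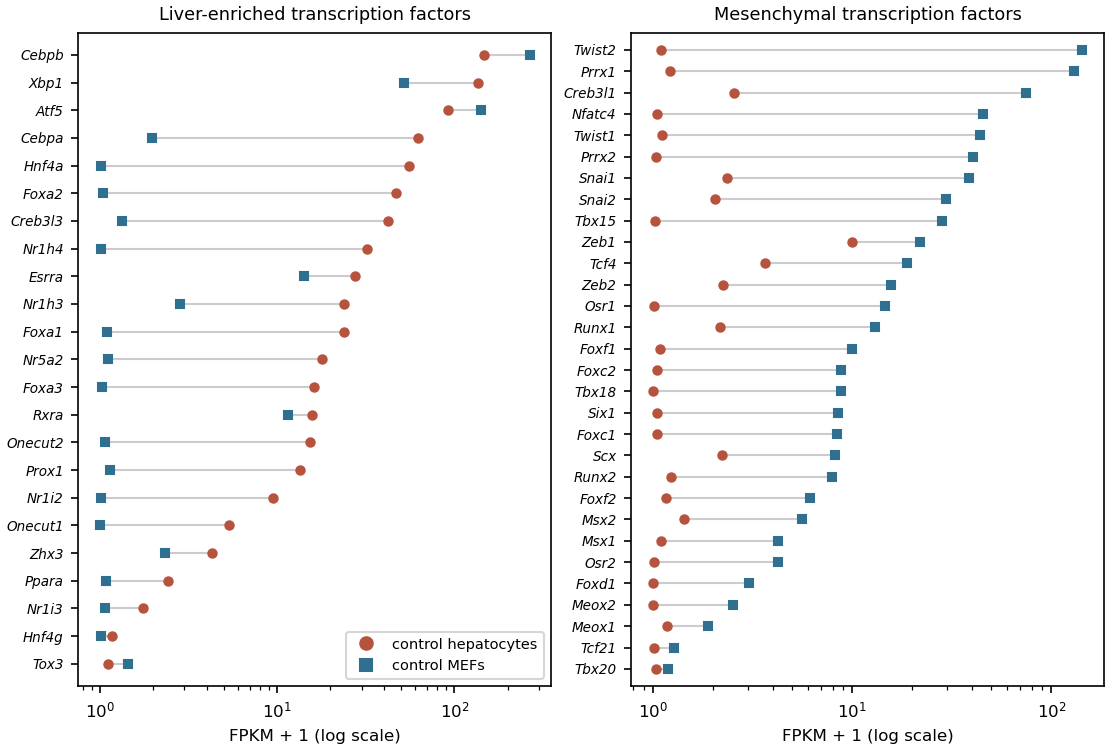
FPKM + 1 (horizontal, log scale) of 23 of the 25 liver-enriched factors (left) and each mesenchymal factor (right) in control hepatocytes (circles) and control MEFs (squares). In MEFs 16 of the 23 drawn liver factors are below 1 FPKM, while Cebpb and Atf5 are higher there than in hepatocytes, and all 30 mesenchymal factors are higher in MEFs.

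Hox genes, which record position along the body axis, followed the same direction. The list of 32 does not hold every Hox gene of the mouse. All 32 were higher in MEFs, 12 by at least 4-fold and 30 by at least 2-fold (backgrounds 4.79% and 10.6%). None of them reached 1 FPKM in hepatocytes, where 17 were listed at 0. Levels in MEFs were modest, up to 13.1 FPKM for Hoxd13, a distal limb gene. Hoxb9 followed at 11.9 FPKM, Hoxc6 at 8.63 FPKM and Hoxb6 at 7.45 FPKM, so trunk and distal genes were present in the same pool of cells.

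Hepatocytes kept the junctions and keratins of an epithelium. Of 17 such genes, 15 were at least 4-fold higher in hepatocytes, with a median of 3.89. The keratin partners Krt8 and Krt18, which form the intermediate filaments of hepatocytes, stood at 776 and 640.4 FPKM in hepatocytes and 0.843 and 1.78 FPKM in MEFs. Cldn3, a tight junction protein, was at 314 against 1.34 FPKM and E-cadherin, Cdh1, at 122 against 0.0501 FPKM. The gap junction gene Gjb1 was at 85.8 FPKM and listed at 0 in MEFs. Vimentin, the mesenchymal filament, was nevertheless high in both, with Vim at 604 FPKM in hepatocytes and 1233 FPKM in MEFs. Sprr1a, an envelope protein of squamous epithelium, was among the largest differences, at 2369 FPKM in hepatocytes against 0.458 FPKM, and Tm4sf4, a tetraspan membrane protein, at 1073 against 0.827 FPKM.

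On the MEF side the extracellular matrix came first. Of 23 collagen chains, 17 were at least 4-fold higher in MEFs and none in hepatocytes, with a median log2 difference of -4.60. The chains of type I collagen, Col1a1 and Col1a2, stood at 7076 and 3222 FPKM in MEFs and 9.92 and 1.73 FPKM in hepatocytes. Col3a1, the type III chain, was at 1468 against 1.23 FPKM, and the fibril regulators Col5a2 and Col5a1 at 729 and 545 FPKM against 0.769 and 0.954 FPKM. Basement membrane chains were measurable in hepatocytes too. Named after their values were seen, Col4a1 was at 83.5 FPKM in hepatocytes against 339.6 FPKM, and Col18a1, which the liver secretes and which yields endostatin, at 186 against 107 FPKM, higher in hepatocytes.

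The proteins that fold, cut and cross-link collagen followed the same order: 14 of 19 were at least 4-fold higher in MEFs. Serpinh1, the collagen chaperone, stood at 2162 against 9.58 FPKM, and Lox, the enzyme that cross-links collagen and elastin, at 1879 against 1.08 FPKM. Pcolce, which speeds the removal of the procollagen end, was at 867 against 29.4 FPKM, whereas the protease itself, Bmp1, differed by less than 2-fold, at 296 and 190.0 FPKM.

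Elastic fibre and proteoglycan genes had the lowest median of all lists, -5.34, and 22 of 24 were at least 4-fold higher in MEFs. The small proteoglycans that coat collagen fibrils, Bgn, Dcn and Lum, stood at 3145, 821 and 314 FPKM in MEFs and 2.09, 1.16 and 0.0335 FPKM in hepatocytes. Fbln2 was at 1425 against 70.1 FPKM and the fibrillin gene Fbn1 at 252 against 0.205 FPKM. Eln, elastin itself, was low in MEFs at 6.82 FPKM, and Prelp equal at 11.01 and 10.97 FPKM (both named after their values were seen).

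Matricellular proteins, which tune how cells read the matrix, split. Of 18, 12 were at least 4-fold higher in MEFs and 2 in hepatocytes. Spp1, osteopontin, was the second highest protein-coding gene of the MEFs, at 5792 FPKM, and stood at 264 FPKM in hepatocytes. Sparc (2549 against 14.6 FPKM), Thbs1 (2099 against 46.1 FPKM) and Tnc (1510.1 against 2.36 FPKM) were on the MEF side. Fn1, fibronectin, which circulates in plasma as a hepatocyte product, was shared at 1307 FPKM in hepatocytes and 1848 FPKM in MEFs. Spon2 (58.6 against 1.93 FPKM) and Smoc1 (47.0 against 3.03 FPKM) were the members at least 4-fold higher in hepatocytes.

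Matrix proteases showed the largest single difference toward MEFs among protein-coding genes. Mmp3, stromelysin, stood at 2568 FPKM in MEFs and 0.439 FPKM in hepatocytes, a log2 difference of -10.80. The inhibitor Timp1 was at 1154 against 18.97 FPKM and Mmp2, a gelatinase, at 657 against 0.118 FPKM. 17 of 23 members were at least 4-fold higher in MEFs. Mmp15, a membrane protease, was the member higher in hepatocytes, at 6.53 FPKM in hepatocytes against 1.44 FPKM.

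Contractile genes were higher in MEFs in 26 of 27 cases. 13 of 27 were at least 4-fold higher in MEFs, and the median was -1.73, against 6 members and a median of -0.95 in the Ad-Cre groups. Acta2, the smooth muscle actin of myofibroblasts, stood at 516 against 0.978 FPKM and its actin-binding partner Tagln at 435 against 7.19 FPKM (Tagln was named after its value was seen). Among forms found in most cells, Actb was at 1573 against 786 FPKM, Actg1 at 1564 against 217 FPKM, Tpm1 at 683 against 354 FPKM and the light chain Myl6 at 727 against 432 FPKM.

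For the MEF side, windows of 150 bases are shown for the genes with the highest MEF FPKM, among those at least 4-fold higher in MEFs with an entry in the RefSeq table, that hold an AP-1 motif (TGANTCA) or a CArG box, the site of serum response factor. AP-1 factors act on matrix protease genes and serum response factor on actin genes. Capitals mark the match, which begins at position -46 in Mmp3 (plus strand, chr9:7445672-7445821) and -90 in Actg1 (minus strand, chr11:120348496-120348645).
Mmp3: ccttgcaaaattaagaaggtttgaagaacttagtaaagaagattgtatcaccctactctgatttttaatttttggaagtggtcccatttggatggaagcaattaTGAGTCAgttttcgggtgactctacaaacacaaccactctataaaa
Actg1: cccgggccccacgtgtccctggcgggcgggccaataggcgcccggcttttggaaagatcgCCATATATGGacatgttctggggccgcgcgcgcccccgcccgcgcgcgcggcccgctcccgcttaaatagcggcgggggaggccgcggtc

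In the windows of 300 bases, the AP-1 motif was present in 7.73% of genes higher in MEFs, 9.88% of genes higher in hepatocytes and 7.25% of all genes, and the CArG box in 2.58%, 2.08% and 1.48%. Over genes with at least 1 FPKM in either cell type the shares were 5.23% and 1.36%, below those of both sides. The AP-1 share was thus higher on the hepatocyte side than on the MEF side. Among the contractile genes, 4 of 22 windows held a CArG box.

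Growth factor genes split between the cell types. Of 29 genes, 13 were at least 4-fold higher in MEFs and 7 in hepatocytes. Igf2, the fetal growth factor from an imprinted locus, stood at 848 FPKM in MEFs and 0.171 FPKM in hepatocytes, and its imprinted neighbour H19, picked after its value was seen, at 349.6 against 0.0207 FPKM. Of the binding proteins that hold these factors, Igfbp7 (1481 against 255 FPKM) and Igfbp3 (302 against 7.23 FPKM) were on the MEF side, and Igfbp1, a liver protein repressed by insulin, on the hepatocyte side at 218 against 0.0128 FPKM. Igfals, which holds the circulating complex together, was at 14.6 against 0.0450 FPKM. The receptor Fgfr4, which takes the gut hormone signal for bile acids, was at 13.5 against 0.0423 FPKM. The receptors Fgfr1 (197 against 7.67 FPKM) and Axl (231 against 35.0 FPKM) were higher in MEFs, although Axl exceeded Fgfr4 in hepatocytes too.

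Among adhesion genes, 13 of 24 were at least 4-fold higher in MEFs and 2 in hepatocytes. Postn, a ligand of integrins, stood at 902 against 0.469 FPKM, Thy1 at 390.2 against 0.462 FPKM and the mesenchymal cadherin Cdh11 at 295 against 0.198 FPKM. The common beta subunit Itgb1 was in both, at 669 and 240.1 FPKM. The alpha subunits Itga3, a laminin receptor, and Itga2 were higher in hepatocytes, Itga3 at 128 against 6.79 FPKM and Itga2 with a log2 difference of 2.07.

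Genes of late cell cycle phases were higher in the hepatocytes. Of 30 genes of G2 phase and mitosis, 29 had the higher FPKM in hepatocytes, 22 by at least 2-fold (background 9.03%) and 2 by at least 4-fold, with a median log2 difference of 1.27. All 30 reached 1 FPKM in both cell types, and over genes that reached it in either the 2-fold share was 16.5%. Cdc20, which starts chromosome separation, stood at 49.0 FPKM in hepatocytes and 11.4 FPKM in MEFs. Cenpa, the histone of centromeres, was at 37.1 against 8.36 FPKM, Ccnb2, a mitotic cyclin, at 32.9 against 9.16 FPKM and Birc5, a subunit of the chromosomal passenger complex, at 37.7 against 17.2 FPKM. Bub3, picked after its value was seen, was the member not higher in hepatocytes, at 28.4 against 29.0 FPKM. Levels of the list were below those of control ES cells, where the median was 67.5 FPKM against 21.0 FPKM in hepatocytes and 8.21 FPKM in MEFs. In the Ad-Cre groups 6 of the 30 reached 2-fold and the median was 0.72, the same direction at a smaller size.

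DNA replication genes lay closer together, with a median of 0.50, 8 of 34 at least 2-fold higher in hepatocytes and 3 in MEFs. The helicase subunit Mcm7 stood at 64.8 against 24.4 FPKM, and Pcna, the sliding clamp, at 59.9 against 48.9 FPKM. The genes at least 2-fold higher in MEFs act in G1 phase. Ccnd2, a D-type cyclin that answers growth factors, was at 104 FPKM in MEFs and 1.49 FPKM in hepatocytes, a log2 difference of -5.40. Ccnd3 was at 73.0 against 23.6 FPKM and the transcription factor E2f1 at 14.6 against 4.85 FPKM.

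Interferon response genes ran the other way. These genes are switched on when a cell senses virus or receives interferon, and both groups had been infected with the same virus. Of 25, 24 were higher in MEFs, 22 by at least 2-fold and 13 by at least 4-fold (backgrounds 10.6% and 4.79%), with a median of -2.28. Over genes of at least 1 FPKM in either cell type these shares were 19.3% and 8.72%. Bst2, which tethers virus at the membrane, was high in both, at 1235 and 441 FPKM. Isg15, a ubiquitin-like protein, stood at 617 against 35.1 FPKM, and Ifit3 and Ifit1, which bind viral RNA complexes, at 315 and 219 FPKM against 3.80 and 7.67 FPKM. Oasl1, named after its value was seen, was the member higher in hepatocytes, at 24.6 against 17.2 FPKM. In the Ad-Cre groups 23 of the 25 were at least 2-fold higher in MEFs.

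**Figure D4:**
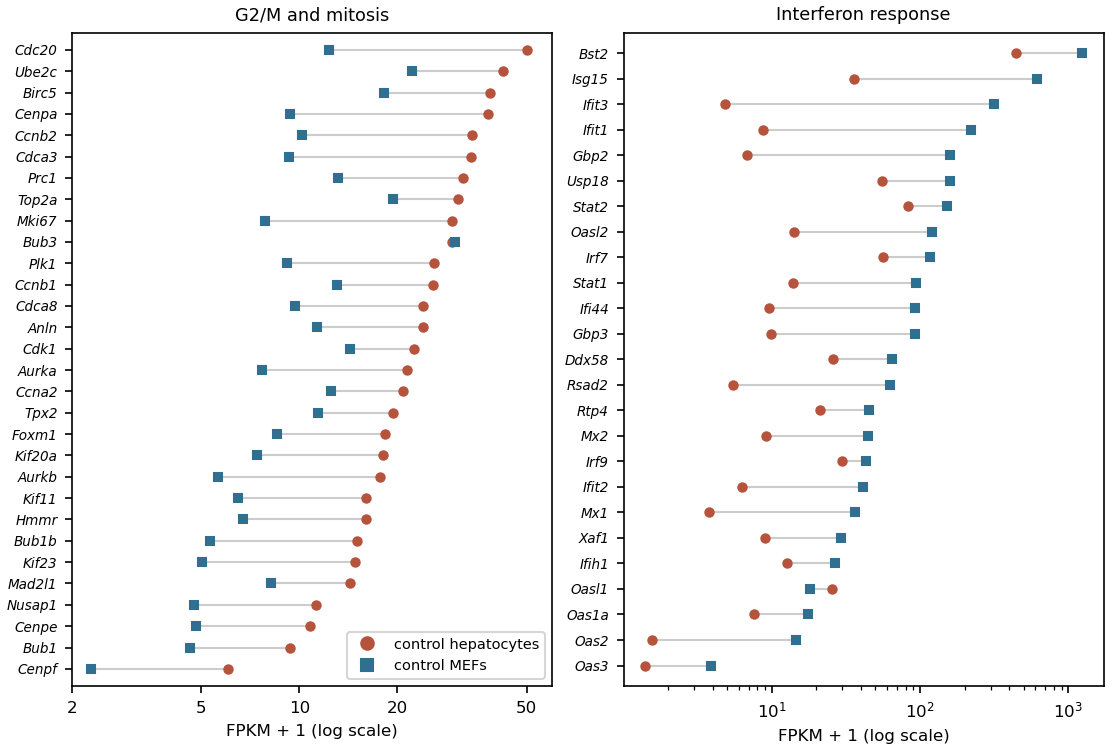
FPKM + 1 (horizontal, log scale) of the genes of G2 phase and mitosis (left) and of the interferon response (right) in control hepatocytes (circles) and control MEFs (squares). The circles lie to the right for 29 of 30 cell cycle genes, and the squares lie to the right for 24 of 25 interferon genes.

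Targets of AP-1, EGR and the YAP/TAZ coactivators, which respond to serum and stiffness, leaned to MEFs, with 5 of 28 at least 4-fold higher there and a median of -0.96. In the Ad-Cre groups 1 was at least 4-fold higher in MEFs and 1 in hepatocytes, with a median of -0.49, and centring on ribosomal protein genes gave a median of -0.35. Ctgf stood at 1159 against 144 FPKM and Cyr61 at 951 against 358 FPKM, so both were abundant in hepatocytes too. Ajuba (108 against 29.0 FPKM) and Ankrd1 (58.6 against 24.7 FPKM) were the members at least 2-fold higher in hepatocytes.

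Genes linked to the fetal or dedifferentiating liver did not gather on the hepatocyte side: 1 of 21 was at least 4-fold higher there and 7 in MEFs. Afp, the fetal serum protein, stood at 30.8 against 0.0449 FPKM. Others are widely expressed in mesenchymal cells, such as Lgals1 (1733 against 524 FPKM) and S100a6 (1429 against 390.2 FPKM), and were still high in hepatocytes.

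Cholesterol synthesis genes were lower in control hepatocytes than in MEFs on the median, -0.55, with 7 of 25 at least 2-fold higher in MEFs and 2 in hepatocytes. The median was 0.61 in the Ad-Cre groups and 0.056 with differences centred on ribosomal protein genes, so the direction of this list depended on the groups and the scaling. Msmo1, a sterol demethylase, stood at 101 against 35.7 FPKM.

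Machinery used by every cell was shared. None of the 38 respiratory chain subunits, 31 proteasome subunits or 28 genes of RNA polymerase II and its tail phosphatases and kinases differed by 2-fold, and their medians were 0.06, -0.07 and 0.19. Ssu72 itself, the targeted gene of the series, stood at 26.0 FPKM in control hepatocytes and 22.7 FPKM in control MEFs. It was named after its value was seen. Ribosomal protein genes were lower in hepatocytes, 50 of 51 with a median of -0.61, which is 0 by construction when differences are centred on them. Reference genes had a median of -0.43, or 0.18 with that centring.

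Pairs of proteins, 1 set beforehand as the liver form and 1 as the other form, gave a second view of cell identity. It does not depend on scaling between the tables, since both forms are read in the same group. In hepatocytes the liver form had the higher FPKM in 18 of 31 pairs and in MEFs in 4 of 31, and the order differed between the cell types in 14. The 4 in MEFs were Pfkl, Cldn1, Rxra and Acaca, so a gene set as liver form was not always particular to hepatocytes. Acaca stood at 11.2 FPKM in hepatocytes and 9.12 FPKM in MEFs. Its other form Acacb was also higher in hepatocytes, at 3.70 against 0.591 FPKM. These counts set Ldhb as the liver form of its pair, although Ldha is the main lactate dehydrogenase subunit of the liver. Ldha was higher than Ldhb in hepatocytes (294 over 8.15 FPKM) and in MEFs (526 over 32.1 FPKM). The gap junction pair changed order, with Gjb1 at 85.8 FPKM and Gja1 at 1.47 FPKM in hepatocytes, and Gjb1 listed at 0 and Gja1 at 194 FPKM in MEFs. Gjb2, a gap junction gene outside the pairs and named after its value was seen, was measured in both. It stood at 30.5 FPKM in hepatocytes and 4.44 FPKM in MEFs. Scd1 and Scd2, which desaturate fatty acids, stood at 69.5 and 7.70 FPKM in hepatocytes and 42.8 and 213 FPKM in MEFs. The cadherins changed order too, but hepatocytes held both, Cdh1 at 122 and Cdh2 at 73.2 FPKM, and MEFs mainly the second, at 59.4 FPKM.

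Most pairs of sugar handling kept the general form on top in both cell types. Hepatocytes had Pkm at 308 FPKM over the liver pyruvate kinase Pklr at 38.2 FPKM, and Slc2a1 at 57.1 FPKM over the liver glucose carrier Slc2a2 at 2.78 FPKM. The general forms were higher still in MEFs for Pkm (1018 FPKM) and Slc2a1 (189 FPKM). The liver phosphofructokinase Pfkl (24.2 FPKM) was above Pfkp (7.04 FPKM) in hepatocytes and also in MEFs (47.0 and 12.5 FPKM), and Pygl (49.0 FPKM) was above Pygb (16.8 FPKM) in hepatocytes. Mat2a (94.6 FPKM) likewise exceeded Mat1a (30.3 FPKM) in hepatocytes, and Fabp5 (68.8 FPKM) exceeded Fabp1 (1.96 FPKM).

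**Figure D5:**
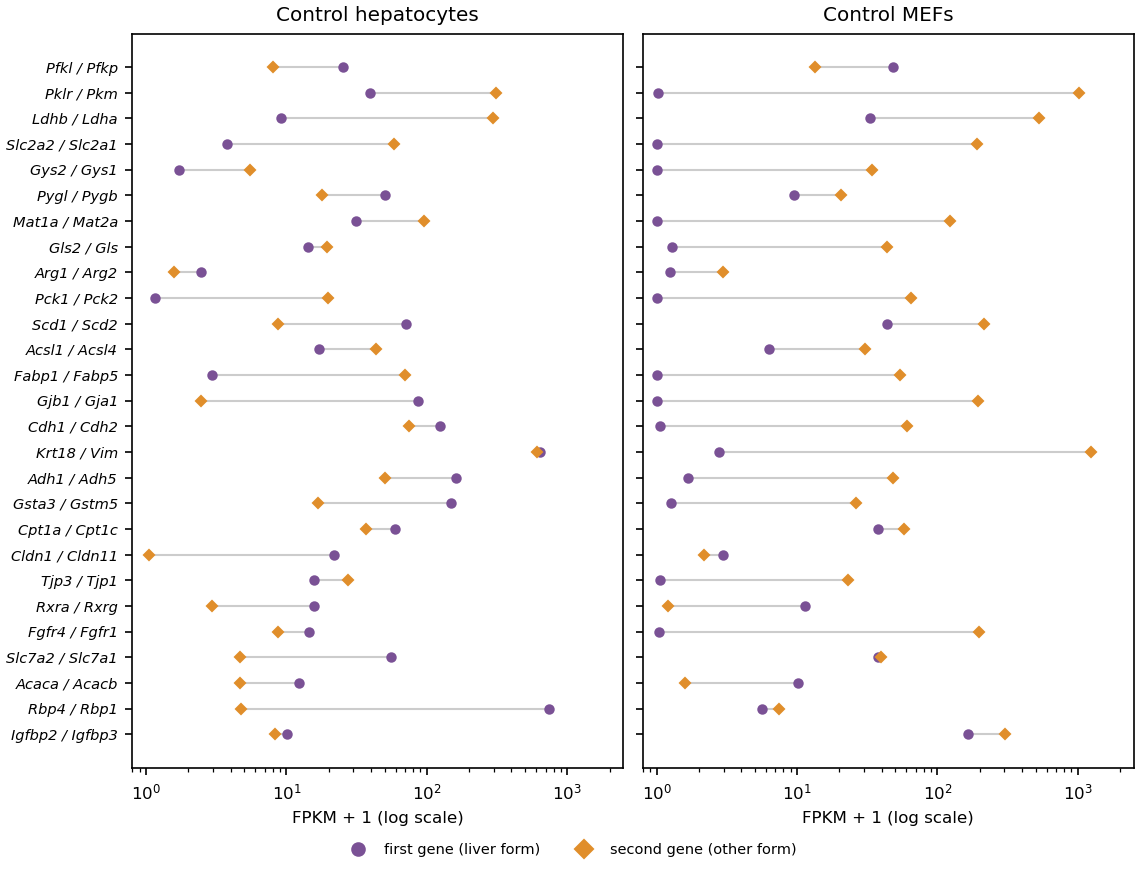
FPKM + 1 (horizontal, log scale) of 27 of the 31 pairs of related genes, liver form first (circles) and other form second (diamonds), in control hepatocytes (left) and control MEFs (right). The liver form lies to the right in 17 of the 27 drawn pairs in hepatocytes and in 4 in MEFs, and the pairs of Pklr and Slc2a2 keep the other form on the right in both. Ldhb is drawn and counted as the liver form of its pair, although Ldha is the main liver subunit.

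Markers of other cell types were measured in both groups, of which Clec4f, Epcam, Krt7, Krt19 and Sox9 are named after their values were seen. In hepatocytes, 12 of 16 macrophage and Kupffer cell markers were below 1 FPKM, Clec4f, a defining Kupffer cell gene, was at 0.0150 FPKM and Timd4 was listed at 0, although Cd14 stood at 219 FPKM. In MEFs, 6 were below 1 FPKM, and the macrophage genes Lyz2 (140.5 FPKM) and Emr1 (7.23 FPKM) were measured. The summed FPKM of this list was 236 in hepatocytes, most of it Cd14, and 203 in MEFs. Of the 16, 6 were at least 4-fold higher in MEFs (background 4.79%) and 1 in hepatocytes, with a median log2 difference of -0.89. Endothelial markers summed to 53.5 FPKM in hepatocytes and 43.0 FPKM in MEFs, with Egfl7 at 16.7 and 11.3 FPKM, and the defining gene Cdh5 at 7.11 FPKM in hepatocytes against 0.150 FPKM. Of 16 endothelial markers, 13 were higher in hepatocytes, with a median log2 difference of 0.72. At 2-fold, 6 were higher in hepatocytes and 1 in MEFs (backgrounds 9.03% and 10.6%). In MEFs 12 were below 1 FPKM, and in hepatocytes 4. In the Ad-Cre groups 8 and 2 reached 2-fold, with a median of 1.03. Stellate cell markers, several of which fibroblasts share, summed to 5.99 FPKM in hepatocytes, 11 of 13 below 1 FPKM, and to 1007 FPKM in MEFs, most of it Dcn.

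Of 10 bile duct markers, 3 were below 1 FPKM in hepatocytes, among them Epcam (0.435 FPKM) and Krt7 (0.528 FPKM), while Krt19 was at 11.3 FPKM, Sox9 at 8.17 FPKM and Cldn4 at 175 FPKM, and the list summed to 1549.6 FPKM, most of it Tm4sf4, and to 5806 FPKM in MEFs, nearly all of it Spp1. Blood cell markers were below 1 FPKM in all 16 in hepatocytes and in 15 in MEFs, S100a8 being the exception at 13.8 FPKM. In MEFs, 10 of 16 mesothelial and epithelial markers and 11 of 17 muscle and neural markers were below 1 FPKM. Members measured in MEFs included mesothelial Upk3b (9.52 FPKM) and Msln (12.1 FPKM) and neuronal Tubb3 (11.3 FPKM) and Stmn2 (9.17 FPKM). In hepatocytes these stood at 0, 1.48, 0.191 and 0 FPKM. Of the mesothelial and epithelial list, 9 were higher in hepatocytes and 7 in MEFs, with a median log2 difference of 0.17. The muscle and neural list summed to 7.84 FPKM in hepatocytes and 44.0 FPKM in MEFs. The part of these cells in the differences above was not tested.

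The same contrast between the Ad-Cre groups, which are other samples of the same cell types without Ssu72, placed 661 of the 844 genes (78.3%) at least 4-fold higher in hepatocytes again, and 889 of the 1149 (77.4%) at least 4-fold higher in MEFs. Alb had a log2 difference of 11.68 and Col1a1 of -8.31 there. The difference was 0 or of the opposite sign for 15 and 24 genes. Of these, 13 and 24 were short RNAs with Mir, Snora or Snord symbols. Several of the 20 largest differences in each direction were such genes, for example Snord83b, at 3802 FPKM in control hepatocytes and listed at 0 in control MEFs but at 3236 FPKM in Ad-Cre MEFs, and Mir762, at 1144 FPKM in control MEFs and listed at 0 in both Ad-Cre groups. A listed 0 may therefore stand for a failed estimate, as for the ribosomal protein gene Rpl26, which every cell uses and which was listed at 0 in control MEFs and at 4.07 FPKM in Ad-Cre MEFs. The hepatocyte receptor gene Asgr1 was 1 of the others, at 5.17 against 0.257 FPKM in the control groups and 2.87 against 4.52 FPKM in the Ad-Cre groups. Rpl26 and Asgr1 were named after their values were seen.

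Genes of each side also lay side by side in the genome. Of the 844 genes higher in hepatocytes, 191 (22.6%) had a direct neighbour that was higher in hepatocytes as well, where 6.69% of all genes had such a neighbour. On the MEF side 235 of 1149 genes (20.5%) had a neighbour higher in MEFs, against 9.10% of all genes. Clusters of similar genes, whose reads may be shared, overlapping loci and short RNAs were not set apart. The shares over all genes also include genes that neither cell type expressed. Control ES cells were below 1 FPKM for 428 of the 844 genes (50.7%) and for 563 of the 1149 (49.0%). The same share over all matched genes was not taken. These shares therefore have no background and are not read as a trait of the called genes.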

How the data were processed

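RNA-Seq libraries were stranded total RNA with paired-end reads per the study's methods. Tools listed by the submitters were CASAVA, TopHat2 (2.0.13) and Cuffdiff (2.2.0), with DESeq and edgeR also named and mm10 as the build. The deposited tables give FPKM values that the authors estimated with Cuffdiff, 1 per gene and group, with each cell type in its own table. Columns with the authors' fold changes and p-values, and 9 tables of gene subsets, were not used.

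Rows of both tables were matched on symbol and compared as log2(FPKM + 1) with Python 3.11.15 and pandas 2.3.3, with no filter on low values. The pseudocount of 1 understates differences of low genes. No column of per-sample values was present in the tables used. The fold calculation was tested on simulated data, with exact fold changes planted without noise in MEF values that were not low. That checks the arithmetic only, and not low values or the separate normalisation.

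The members, 43 gene lists (980 of 996 symbols matched) and 31 pairs were chosen with earlier results of these data known. Named genes were Alb, Col1a1, the 20 largest differences per direction, in each list the 6 highest members in the favoured cell type and up to 3 members at least 2-fold the other way, members at 0 in both, the transcription factors and the pairs; others are marked. Promoter windows came from RefSeq by symbol, at the start nearest the deposited locus. Alternatives were another pseudocount, a filter, other scalings and fold limits, single symbols and the Ad-Cre groups. Some genes that count in the lists and pairs are not reported here by name or drawn.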

Additional observations from a re-analysis of the deposited data

How the results depend on the processing

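The count of genes at least 4-fold higher moved from 844 in hepatocytes and 1149 in MEFs to 1451 and 2217 with a pseudocount of 0.1, to 2167 and 2536 at 2-fold and to 458 and 612 at 8-fold. Centring on ribosomal protein genes gave 1441 in hepatocytes and 776 in MEFs. The counts stayed within 1.5 times of the main ones with centring on genes expressed in both (805 and 1215), in the Ad-Cre groups (762 and 997) and with rows of a single symbol (841 and 1148). They also did so without short RNA symbols (818 and 1114), an alternative chosen after seeing the data, and with FPKM totals made equal (1046 and 1426). That scaling raised both totals, 540909 in hepatocytes and 555802 in MEFs, to a common larger value before 1 was added. It thus also lessened the weight of the pseudocount, and these effects were not separated. Keeping only genes of at least 1 FPKM in either group gave 844 and 1149. This was fixed in advance, since a 4-fold call on FPKM + 1 already needs more than 1 FPKM in the higher group. The Alb difference was 11.90 with a pseudocount of 0.1 and 11.78 with ribosomal centring, and the Col1a1 difference -8.73 with ribosomal centring and -8.31 in the Ad-Cre groups. Of 43 list medians, all 43 moved by more than 1.5-fold with ribosomal centring, which shifts each by 0.61, and 24 with a pseudocount of 0.1. In the Ad-Cre groups 16 moved, and 5 with the filter of 1 FPKM. With equal FPKM totals, where the pseudocount also weighs less, 8 moved. Medians near 0 turned: with ribosomal centring those of cholesterol synthesis (0.056), reference genes (0.18), proteasome (0.54), blood cell (0.60) and muscle and neural (0.28) lists, in the Ad-Cre groups cholesterol synthesis (0.61) and the respiratory chain (-0.23), and the latter also when centred on genes expressed in both (-0.0086). In the Ad-Cre groups no list member at 4-fold turned, but Asgr1, which is in no list, did, and Mir704, Mir1901, Mir762 and Snord1c were listed at 0 in both groups. The cause was not tested. Leaving out each replicate was not run, because the tables hold group values only. No paired analysis was possible because the tables hold no value per sample. Depth is unknown, so no interval could be given.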
